A study of Mus musculus with 2 samples.

Results

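The tumour necrosis factor (TNF) superfamily comprises small trimeric ligands and the cell surface receptors that bind them. Its expression was examined here in mammary basal cells from mice given clodronate liposomes (CL) and from control mice, because the study asked whether TNF-α made by macrophages acts on these cells. Members were taken by gene name alone, with no use of their values: every gene of the count table named Tnfsf or Tnfrsf with a number, together with *Tnf*, *Lta*, *Ltb*, *Ltbr*, *Fas*, *Fasl*, *Cd40*, *Cd40lg*, *Cd27*, *Cd70*, *Ngfr*, *Edar*, *Eda2r* and *Relt*. This gave 45 genes of 49492 in the table, 17 ligands and 28 receptors. The cells were sorted as negative for CD45, CD31 and TER119, positive for CD24 and high for CD29. They came from adult wild-type female mice, and both libraries carry the label day 7. The CL basal library came from mice treated with clodronate liposomes, vesicles that kill the macrophages that engulf them. The Ctrl basal library is labelled as untreated, and the design text names saline. With 1 library in each group there is no replicate check on any difference, and no p-value is given. How many mice went into a library is not given in the sources used here.

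TNF family ligands are made as membrane proteins, and several are released from the cell by proteases. Receptors of the family carry cysteine-rich repeats outside the cell. Some hold a death domain inside, through which they can start apoptosis, while others bind TRAF adaptors and switch on NF-kB and MAP kinases. A few bind ligand without passing on a signal and are called decoys. In the mammary gland the best known pair is *Tnfsf11* (RANKL), made by hormone sensing luminal cells under progesterone, and its receptor *Tnfrsf11a* (RANK), which drives growth of epithelial cells. *Ngfr* (p75) is a known marker of myoepithelial cells.

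Exon counts totalled 37846008 in Ctrl basal and 38962512 in CL basal. Levels are given as CPM, the counts of a gene relative to library depth, and are compared between genes as RPKM, which also divides by exon length. A ratio is the log2 of CL basal over Ctrl basal after scaling for depth, with an exact 95% interval. Counts from 1 to 20 were even in 67.9% of genes in Ctrl basal and 68.7% in CL basal, as would be seen if most fragments added a count for each mate. Intervals were therefore also computed with counts halved. All intervals cover counting error only. A count of 0 allows up to 3 counts, or 0.0782 CPM in Ctrl basal and 0.078 in CL basal.

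Marker genes set the cell types behind these values. The 10 basal and myoepithelial markers summed to 17500 CPM in Ctrl basal and 18200 in CL basal, which fits the label. Luminal markers were present and lower in CL basal, with 5050 and 3180 CPM for 6 pan-luminal genes, 272 and 122 for 8 hormone sensing genes, and 575 and 242 for 8 progenitor and alveolar genes. The 15 macrophage markers summed to 82.1 and 81.1 CPM, and 7 of the 10 with at least 20 counts were lower in CL basal (median ratio -0.28). *Adgre1*, which encodes F4/80, had 7 counts in Ctrl basal and 10 in CL basal. T and NK cell markers summed to 13.8 and 15.6 CPM, B and plasma cell markers to 138 and 142, and dendritic cell markers to 24.2 and 21.1. Fibroblast markers summed to 257 and 209 CPM, endothelial markers to 433 and 350, adipocyte markers to 125 and 92.3, and Schwann cell markers to 152 and 147. A single gene held most of several of these sums. Hormone sensing markers came to 71.9 and 41.2 CPM without *Areg*, progenitor and alveolar markers to 63.8 and 32.7 without *Aldh1a3*, and dendritic cell markers to 5.5 and 5.62 without *Zbtb46*. B and plasma cell markers came to 20.1 and 24.6 CPM without *Xbp1*, Schwann cell markers to 13.2 and 9.99 without *Sox10*, and adipocyte markers to 3.42 and 2.13 without *Fabp4*. Epidermal markers rested on few counts but stood apart, with 2.48 and 17.7 CPM. In bulk RNA of this kind, fewer cells of a type and less RNA per cell cannot be told apart.

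**Figure D1:**
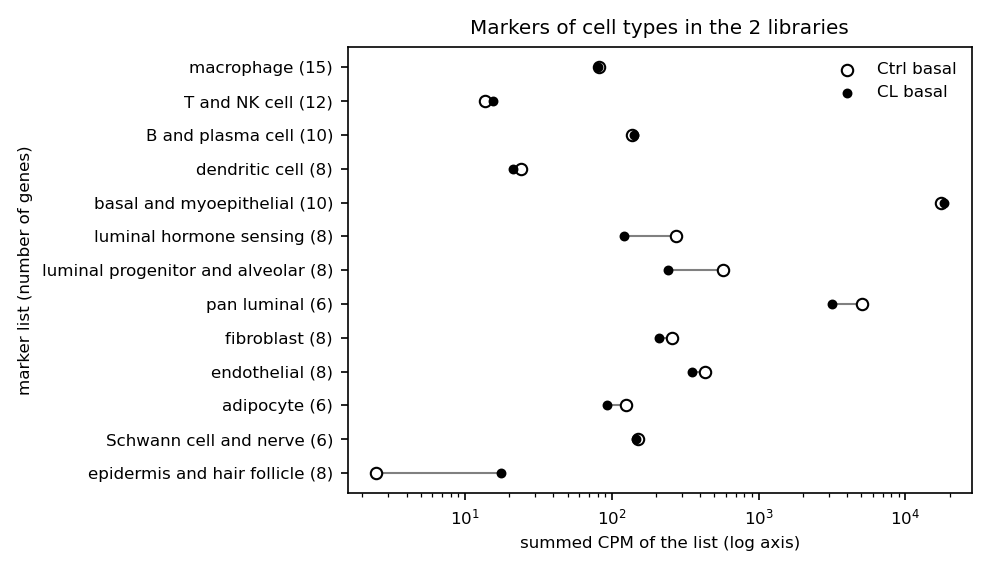
Summed CPM (log axis) of the markers of each cell type in Ctrl basal (open points) and CL basal (filled points), with the number of genes in brackets. Basal markers are by far the most abundant, the 3 luminal lists are lower in CL basal, and the epidermal list is higher, from 2.48 to 17.7 CPM.

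Receptors made up most of the family's RNA. Of the 45 members, 44 had at least 1 count in either library and 36 had at least 20 counts over both, of which 11 were ligands and 25 receptors. The receptors together reached 568 CPM in Ctrl basal and 641 in CL basal, and the ligands 41.5 and 43.0 CPM. A single receptor, *Tnfrsf12a* (Fn14, which binds the ligand TWEAK), held 44.4% of the members' CPM in Ctrl basal and 45.4% in CL basal. Its RPKM was 281 in Ctrl basal and 322 in CL basal, at percentile 99 of all genes with at least 20 counts. The next receptors in order of RPKM were *Tnfrsf1a*, the widely expressed TNF receptor, at 28.3 and 29.7, *Ngfr* at 10.5 and 16.9, *Tnfrsf21* (DR6) at 12 and 14.2, and *Ltbr*, the lymphotoxin β receptor, at 11.4 and 11.3. *Tnfrsf11b* (osteoprotegerin) at 8.16 and 11.2, *Tnfrsf10b* at 9.82 and 8.98 and *Fas* at 9.0 and 7.08 followed. From *Ngfr* to *Fas* the order was not the same in both libraries.

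Ligands were less abundant. The highest was *Tnfsf12*, which encodes TWEAK, at 5.94 RPKM in Ctrl basal and 6.71 in CL basal. *Tnfsf13* (APRIL) stood at 4.0 and 4.1 and *Tnf* at 4.37 and 2.86, so that their order was not the same in the 2 libraries. The levels of *Tnfsf12* and *Tnfsf13* are uncertain. These genes are neighbours on chromosome 11, and 48.3% of the exonic bases of *Tnfsf12* and 60.0% of those of *Tnfsf13* also belong to *Tnfsfm13*, a read-through gene that had 461 counts in Ctrl basal and 483 in CL basal.

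**Figure D2:**
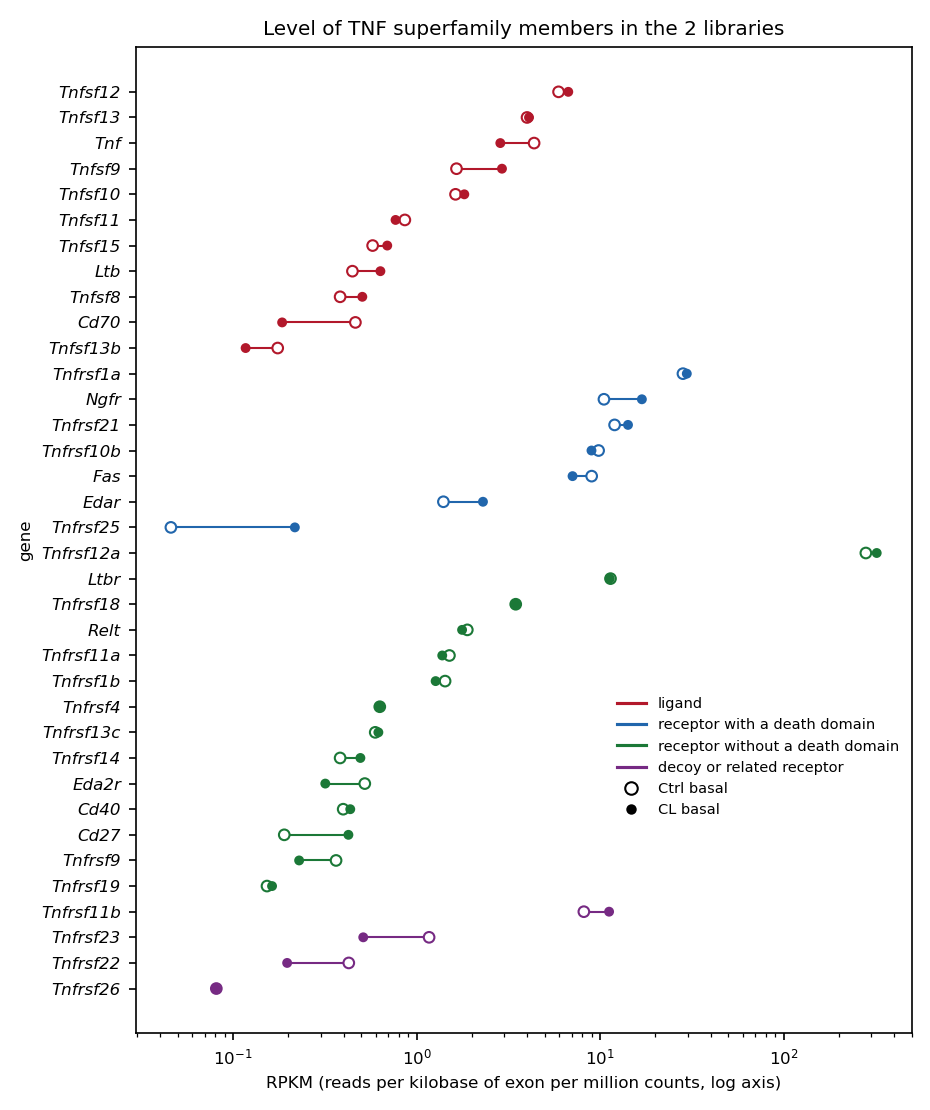
RPKM (log axis) of the 36 members with at least 20 counts in Ctrl basal (open points) and CL basal (filled points), grouped and coloured by role. *Tnfrsf12a* stands far to the right of the other members, near 300 RPKM (281 and 322), and every ligand is below 10 RPKM.

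Across these 36 members the differences went both ways. The median ratio was 0.05, against -0.01 for all 17356 genes with at least 20 counts, and 17 members were lower and 19 higher in CL basal. A difference of at least 2-fold was seen in 3 members that were lower (*Tnfrsf23*, *Tnfrsf22* and *Cd70*), where 4.78% of all genes were lower by as much. It was seen in 2 members that were higher (*Tnfrsf25* and *Cd27*), where the share over all genes was 2.07%. In either direction 6.86% of all genes passed 2-fold. Of these 5 genes, *Cd70*, *Tnfrsf25* and *Cd27* had 20 to 99 counts over both libraries, a class in which 22.8% of all genes differed by 2-fold. *Tnfrsf22* and *Tnfrsf23* were among 17 members with at least 100 but under 1000 counts, where the share was 4.1%. Of the 8 members with 1000 or more counts 0 reached 2-fold, against 0.676% of all such genes. At a threshold of 1.5-fold, *Tnf*, *Eda2r* and *Tnfrsf9* joined the lower members (6 in all, 11.7% of all genes) and *Tnfsf9*, *Edar* and *Ngfr* the higher ones (5 in all, 6.34% of all genes), with 18% of all genes past this threshold in either direction. By count class these were 4 of 11 members with 20 to 99 counts (46.6% of all such genes), 6 of 17 in the middle class (17.2%) and 1 of 8 in the highest (3.27%). The 95% interval left out 0 for 6 members that were lower and 8 that were higher, where it did so for 50.6% of all genes. With counts halved this held for 5 lower and 6 higher members, and for 36% of all genes. The members' shares were thus not above those of all genes by either interval.

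**Figure D3:**
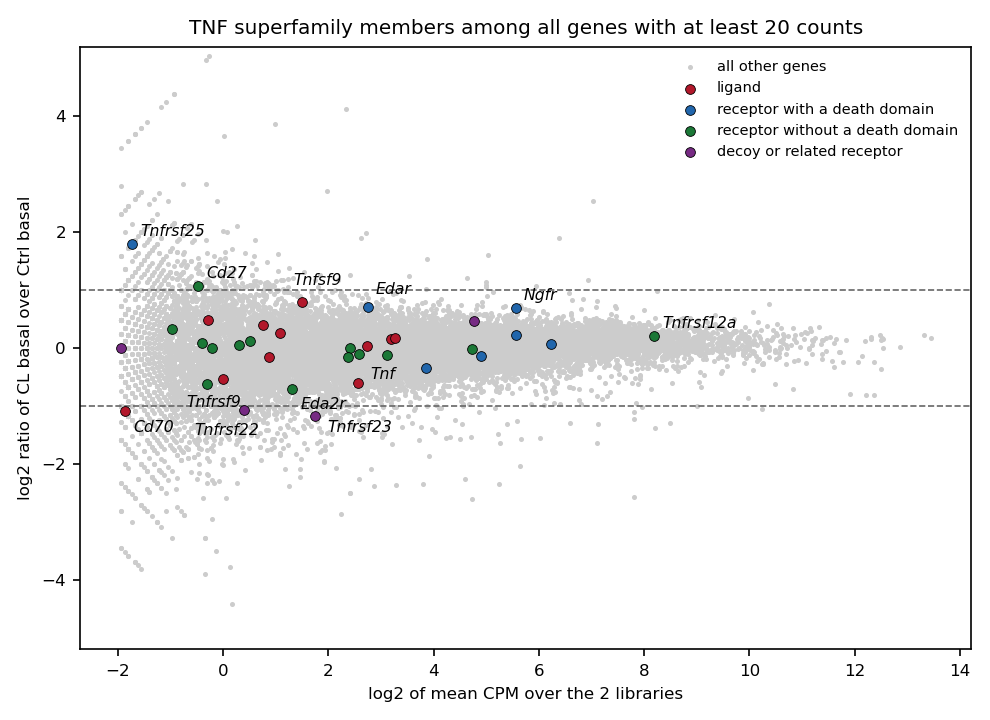
Ratio of CL basal over Ctrl basal against mean abundance (log2 of CPM) for all genes with at least 20 counts (grey) and for the members, coloured by role and named where they pass 1.5-fold or are the most abundant. Dashed lines mark 2-fold. The 3 members of lowest abundance among the 5 past 2-fold lie where grey points scatter widely, and *Ngfr* lies near the edge of genes of its abundance.

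Among ligands, *Tnf* was lower in CL basal and *Tnfsf9* was higher. *Tnf* (chromosome 17, 35199381 to 35202007, GRCm38), the founding cytokine of the family, had 275 counts in Ctrl basal and 180 in CL basal. Its ratio was -0.61 (95% interval -0.89 to -0.34, and -1.01 to -0.22 with counts halved). *Tnf* fell short of 1.5-fold with upper-quartile scaling (-0.57) and with a trend on mean expression removed (-0.54). Macrophages are a known source of TNF, and most of their markers were lower beside it, as given above, although their summed level was nearly the same. Single markers went both ways, with 168 and 86 counts for *Mrc1* (Ctrl basal first), 233 and 185 for *Cd68* and 64 and 89 for *Csf1r*. The part of macrophage RNA in the *Tnf* value was not tested. *Lta*, the gene beside *Tnf* whose product binds the same receptors, had 2 counts in each library. *Ltb*, on the other side of *Tnf*, had 26 counts in Ctrl basal and 37 in CL basal, a ratio of 0.48 whose interval (-0.26 to 1.29) held 0.

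*Tnfsf9* (4-1BB ligand, a costimulator of T cells) had 78 counts in Ctrl basal and 138 in CL basal. Its ratio of 0.80 (0.41 to 1.24, and 0.23 to 1.43 with counts halved) was the highest of the ligands with at least 20 counts. Its receptor *Tnfrsf9* (4-1BB) had 38 and 24 counts, a ratio of -0.62 with an interval of -1.47 to 0.11. The receptor was thus the lower of the pair in CL basal by its point value, but its interval held 0.

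For the remaining ligands with at least 20 counts, every interval held 0. *Tnfsf10* (TRAIL, which triggers death receptors) had 330 counts in Ctrl basal and 369 in CL basal, a ratio of 0.16 (-0.06 to 0.38). *Tnfsf12* had 345 and 391 counts (0.18, -0.04 to 0.39) and *Tnfsf13* had 251 and 258 (0.04, -0.22 to 0.29). At this depth no difference was detectable in these 3 ligands. *Tnfsf11* (RANKL) had 74 counts in Ctrl basal and 66 in CL basal, a ratio of -0.16 (-0.67 to 0.33). The hormone sensing luminal markers, the cells known to make RANKL, were lower beside it, with a median ratio of -0.87 over 8 genes. Their part in the *Tnfsf11* value was not tested.

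*Tnfsf15* (TL1A) had 74 counts in Ctrl basal and 89 in CL basal (0.26, -0.20 to 0.73), and *Tnfsf8* (CD30 ligand) had 56 and 74 (0.39, -0.12 to 0.93). *Tnfsf13b* (BAFF, a survival factor of B cells) had 46 and 31 (-0.54, -1.28 to 0.12), and *Cd70* had 15 and 6 (-1.09, -2.98 to 0.12). *Cd70* thus passed 2-fold on 21 counts in all, with an interval that held 0. The other 6 ligands, *Cd40lg*, *Fasl*, *Lta*, *Tnfsf4*, *Tnfsf14* and *Tnfsf18*, had under 20 counts over both libraries. *Cd40lg* was the highest of them, with 6 counts in each library, and *Tnfsf14* had 5 counts in Ctrl basal and 0 in CL basal, with an interval that held 0. *Fasl*, the ligand of *Fas*, had 2 counts in Ctrl basal and 0 in CL basal, both under the 3 counts that a count of 0 allows.

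Receptors with a death domain were the most abundant group after *Tnfrsf12a*, and 3 of the 7 were higher by 1.5-fold or more in CL basal, against 6.34% of all genes. One of these, *Tnfrsf25*, rested on 23 counts. *Ngfr* (chromosome 11, 95568818 to 95587735), which binds neurotrophins, had 1383 counts in Ctrl basal and 2235 in CL basal. Its ratio was 0.69 (0.59 to 0.79, and 0.55 to 0.83 with counts halved). Among all genes with 1000 or more counts, 3.27% differed by 1.5-fold, and *Ngfr* was the one member among 8 that did. Markers of cell types known to express p75 stood beside it as follows. The basal and myoepithelial list had a median ratio of 0.09 over 10 genes. In the Schwann cell list, 5 of the 5 genes with at least 20 counts were lower, with a median of -0.14 and the lowest ratio in *S100b* (30 and 5 counts, -2.20). The part of either cell type in the *Ngfr* value was not tested.

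*Edar* (chromosome 10, 58600789 to 58675654), the ectodysplasin receptor, acts in the budding of skin appendages, the mammary gland included. It had 195 counts in Ctrl basal and 321 in CL basal, a ratio of 0.71 (0.45 to 0.98, and 0.34 to 1.09 with counts halved). *Eda2r*, which binds a splice form of the same ligand and has no death domain, went the other way. It had 118 counts in Ctrl basal and 72 in CL basal, a ratio of -0.70 (-1.16 to -0.28, and -1.36 to -0.09 with counts halved). Their ligand *Eda*, named after its values were seen, had 64 and 48 counts (-0.40, -0.99 to 0.14), and *Edaradd*, the adaptor of *Edar*, had 105 and 107. Epidermal markers were higher beside *Edar*, but from 95 to 682 counts in all and mostly through *Krt1* (19 and 367) and *Krt10* (38 and 262). Their part in the *Edar* value was not tested.

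*Tnfrsf1a*, the receptor for TNF in most cells, had 2815 counts in Ctrl basal and 2955 in CL basal (0.07, -0.01 to 0.14). *Tnfrsf21* had 1676 and 1976 counts, a ratio of 0.23 (0.14 to 0.33). *Tnfrsf10b*, the mouse TRAIL receptor that signals death, had 1194 and 1095 counts, a ratio of -0.13 (-0.25 to -0.01) whose interval held 0 with counts halved (-0.30 to 0.04). *Fas*, a death receptor, was lower, with 622 counts in Ctrl basal and 490 in CL basal, a ratio of -0.35 (-0.52 to -0.17). *Tnfrsf25* (DR3, the receptor of TL1A on T cells) had 4 counts in Ctrl basal and 19 in CL basal. Its ratio of 1.80 was the highest of the members with at least 20 counts, with an interval of 0.66 to 4.26 that widened to -0.01 to 5.48 with counts halved.

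Among receptors without a death domain other than the decoys, the most abundant was *Tnfrsf12a* (chromosome 17, 23675447 to 23677449). It had 10388 counts in Ctrl basal and 11932 in CL basal, a ratio of 0.20 (0.16 to 0.23). *Ltbr* had 1026 and 1020 counts, a ratio of -0.01 (-0.14 to 0.11). *Tnfrsf1b*, the TNF receptor best known from immune cells, had 209 and 187 counts (-0.16, -0.46 to 0.13), far fewer than *Tnfrsf1a* and with an RPKM of 1.43 and 1.27. *Tnfrsf11a* (RANK) had 346 and 318 counts (-0.12, -0.35 to 0.10). *Relt*, a receptor found in lymphoid tissue, had 238 and 223 (-0.10, -0.37 to 0.17). No difference was detectable in these last 4 receptors at this depth.

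*Tnfrsf18* (GITR, a receptor of T cells) had 203 counts in each library, but 27.2% of its exonic sequence is shared with *Gm16008* on the opposite strand, which had 156 and 145 counts. *Cd40*, a receptor of B cells and dendritic cells, had 52 counts in Ctrl basal and 57 in CL basal. *Tnfrsf4* (OX40) had 33 in each, *Tnfrsf13c* (the BAFF receptor) 46 and 48, *Tnfrsf19* (TROY) 28 and 30, and *Tnfrsf14* (HVEM) 17 and 22. Their ratios ran from 0.00 (*Tnfrsf4* and *Tnfrsf18*) to 0.33 (*Tnfrsf14*), and each interval held 0.

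*Cd27* (chromosome 6, 125232622 to 125237010), a costimulatory receptor of lymphocytes, had 17 counts in Ctrl basal and 38 in CL basal. Its ratio of 1.07 (0.30 to 2.08) passed 2-fold, but with counts halved its interval held 0 (-0.08 to 2.52). Its ligand *Cd70* was the lower in CL basal by its point value. Among lymphocyte markers, *Cd3e* had 14 counts in each library, *Cd79a* 49 and 56, *Ighm* 296 and 428, and *Jchain*, which joins secreted antibody chains, 11 and 24. The T and NK cell list had a median ratio of 0.11 over 9 genes and the B and plasma cell list one of -0.01 over 9. Their part in the *Cd27* and *Tnfrsf25* values was not tested.

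The 3 receptors under 20 counts, *Tnfrsf8*, *Tnfrsf13b* and *Tnfrsf17*, are also known from lymphocytes. *Tnfrsf13b* (TACI) had 3 counts in Ctrl basal and 14 in CL basal, a ratio of 1.68 with an interval of 0.38 to 4.66 that held 0 once counts were halved. *Tnfrsf8* (CD30) had 0 counts in Ctrl basal and 6 in CL basal, and its interval held 0 once counts were halved. *Tnfrsf17* (BCMA), a receptor of plasma cells, had 0 counts in both, which allows up to 0.0782 CPM.

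The decoy receptors differed in direction. *Tnfrsf11b*, the secreted decoy of RANKL and TRAIL, was higher in CL basal, with 882 counts in Ctrl basal and 1213 in CL basal. Its ratio was 0.46 (0.33 to 0.58, and 0.28 to 0.64 with counts halved). *Tnfrsf23* (chromosome 7, 143665809 to 143685872) and *Tnfrsf22* (chromosome 7, 143634806 to 143649661) encode mouse decoys for TRAIL and lie side by side. *Tnfrsf23* had 178 counts in Ctrl basal and 78 in CL basal, a ratio of -1.17 (-1.60 to -0.80). *Tnfrsf22* had 69 and 32 counts, a ratio of -1.07 (-1.76 to -0.49). With counts halved their intervals still left out 0 (-1.78 to -0.64 and -2.07 to -0.22), and they were the 2 members past 2-fold of which this was true, where 4.67% of all genes met both conditions. *Tnfrsf22* fell short of 2-fold, at -0.96, when a trend on mean expression was removed. The luminal lists were lower by a like amount beside this pair, with median ratios of -0.87, -0.98 and -0.96, and the fibroblast list had a median of -0.51. The part of these cells in the *Tnfrsf22* and *Tnfrsf23* values was not tested. The pair are not separate measurements in full. Of the 50-base words in annotated *Tnfrsf22* transcripts 17.3% also occur in *Tnfrsf23*, and 18% the other way, so reads from the shared stretches cannot be assigned to either by sequence. *Tnfrsf26*, a relative beside *Tnfrsf22*, had 10 counts in each library.

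*Tnfrsf23* also shares 164 of its 3962 exonic bases with the opposite-strand gene *E230032D23Rik*, which had 62 counts in Ctrl basal and 20 in CL basal. This overlap covers 4.14% of its exonic bases. *Tnfrsf22* showed no exonic overlap with another gene of the table.

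**Figure D4:**
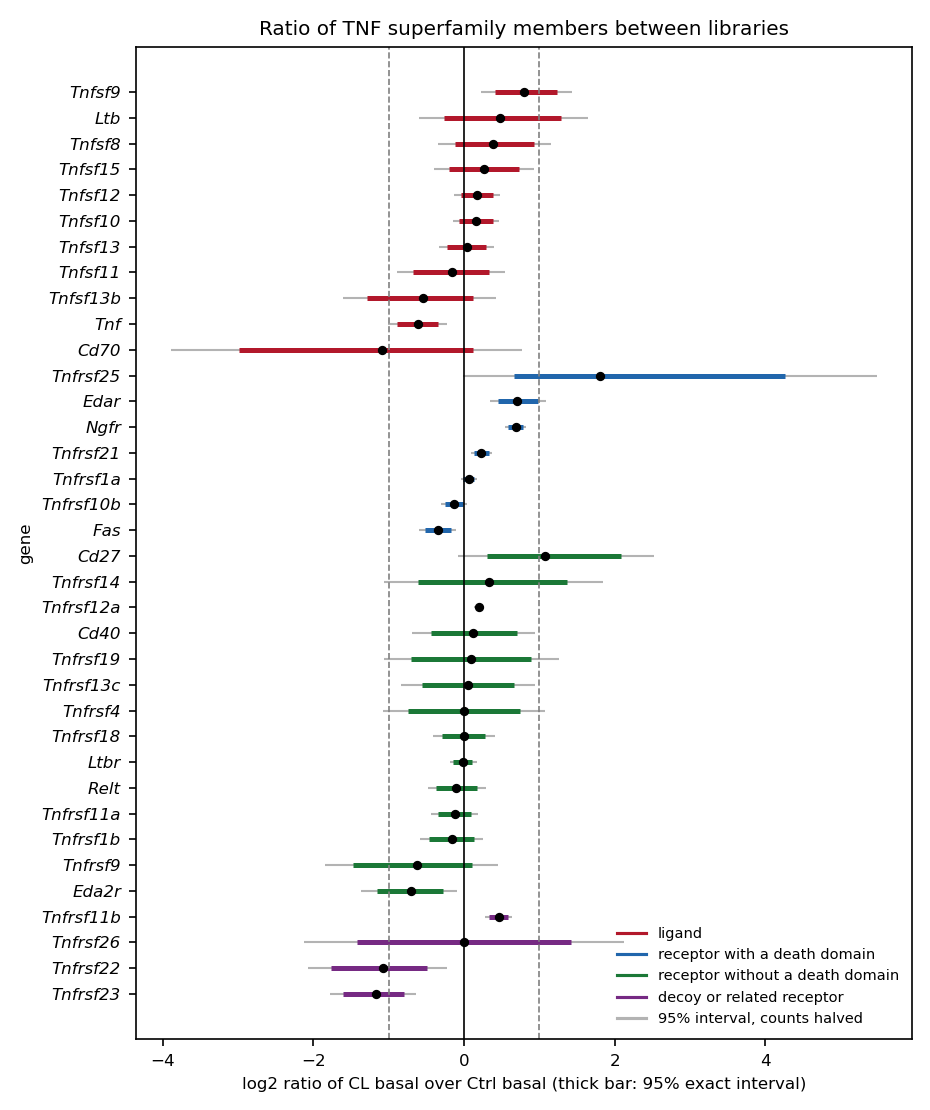
Log2 ratio of CL basal over Ctrl basal for the 36 members with at least 20 counts (points), with the 95% exact interval (thick bars) and the interval with counts halved (thin grey lines). Dashed lines mark 2-fold. *Tnfrsf22* and *Tnfrsf23* lie past the lower line with intervals clear of 0, while the grey intervals of *Cd70*, *Tnfrsf25* and *Cd27* reach 0.

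The promoters of 4 members are shown, chosen from the most abundant ligand and receptor, the cytokine at the centre of the study, and the genes past 2-fold with at least 50 counts. *Tnfrsf22* and *Tnfsf12* also met this rule. Each is the 250 bases before the annotated start in RefSeq (GRCm38.p6), read 5′ to 3′ on the strand of the gene, which is the minus strand in all 4. Capitals mark TATAAA or CCAAT on either strand. The kB motif of NF-kB, as GGGRNNYYCC (R is A or G, Y is C or T, N any base), was also searched on both strands. So was TGANTCA, the AP-1 motif, and neither pattern occurs in these 4 stretches. Looser forms of the kB motif and bases farther upstream were not searched. A missing match therefore does not show that a promoter lacks NF-kB sites.
Tnf, chr17:35202008-35202257: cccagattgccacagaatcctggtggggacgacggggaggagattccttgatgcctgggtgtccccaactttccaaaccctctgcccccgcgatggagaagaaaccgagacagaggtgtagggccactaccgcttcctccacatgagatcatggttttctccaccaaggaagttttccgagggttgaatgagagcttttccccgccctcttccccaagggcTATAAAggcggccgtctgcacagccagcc
Tnfrsf12a, chr17:23677450-23677699: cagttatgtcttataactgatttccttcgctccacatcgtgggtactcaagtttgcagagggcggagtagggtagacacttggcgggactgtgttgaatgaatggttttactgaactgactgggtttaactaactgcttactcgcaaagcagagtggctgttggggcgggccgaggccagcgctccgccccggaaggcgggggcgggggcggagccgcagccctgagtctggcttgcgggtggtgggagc
Tnfrsf23, chr7:143685876-143686125: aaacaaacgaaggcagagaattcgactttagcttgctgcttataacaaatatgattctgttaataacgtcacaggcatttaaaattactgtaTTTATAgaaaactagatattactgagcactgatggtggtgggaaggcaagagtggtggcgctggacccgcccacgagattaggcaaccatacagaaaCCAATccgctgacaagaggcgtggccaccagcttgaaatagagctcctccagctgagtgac
Cd27, chr6:125237028-125237277: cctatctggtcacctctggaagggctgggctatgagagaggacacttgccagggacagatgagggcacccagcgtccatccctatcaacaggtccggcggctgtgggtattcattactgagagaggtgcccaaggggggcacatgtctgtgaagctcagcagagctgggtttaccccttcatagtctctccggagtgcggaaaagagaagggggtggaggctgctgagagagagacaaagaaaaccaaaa

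In the *Tnf* promoter TATAAA lies from 29 to 24 bases before the start. That of *Tnfrsf23* holds CCAAT from 61 to 57 bases before the start and TATAAA, on the other strand, from 158 to 153 bases before it. The GC content was 57.6% for *Tnf*, 58.8% for *Tnfrsf12a*, 44.8% for *Tnfrsf23* and 56.0% for *Cd27*. Of 39 promoters listed for 35 of the members, 4 held the kB motif (*Ltb*, *Tnfrsf8*, *Tnfrsf9* and *Tnfrsf25*), against 7.25% of all 32851 promoters. TGANTCA was in 6 (6.75% of all), TATAAA in 7 (12.4% of all) and CCAAT in 5 (33.8% of all). These matches are letters in a window, not sites shown to be bound.

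Ligand and receptor were set side by side for 27 known pairs. In 14 of them both had at least 20 counts, in 5 the ligand alone and in 8 the receptor alone. The receptor had the higher RPKM in 8 of the 14. TWEAK and its receptor were the most abundant pair, and both were slightly higher in CL basal (0.18 for *Tnfsf12* and 0.20 for *Tnfrsf12a*), although the interval of the ligand held 0. In the TNF pair the ligand was lower (-0.61) with its main receptor level (0.07). In the RANK system *Tnfsf11* (-0.16) and *Tnfrsf11a* (-0.12) had intervals that held 0, while the decoy *Tnfrsf11b* was higher (0.46). In the TRAIL system the ligand *Tnfsf10* (0.16) and the death receptor *Tnfrsf10b* (-0.13) differed little, *Tnfrsf11b* was higher, and the decoys *Tnfrsf22* and *Tnfrsf23* were lower.

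Genes that act between these receptors and the nucleus went both ways by less than 2-fold. The list held 62 genes, all with at least 20 counts, and its median ratio was 0.02. Of these genes, 30 were lower and 32 higher, and 0 reached 2-fold in either direction, against 6.86% of all genes. At 1.5-fold, 4 were lower and 0 higher, against 11.7% and 6.34% of all genes. The 95% interval left out 0 for 14 lower and 25 higher genes of the list (50.6% of all genes), and with counts halved for 11 and 22 (36% of all genes). The 22 adaptors and ubiquitin ligases had a median of 0.07 (from -0.47 to 0.40), the 17 kinases and their partners one of 0.12 (-0.79 to 0.38), the 12 cell death genes one of -0.03 (-0.36 to 0.29) and the 11 genes for ligand processing and related ligands one of -0.14 (-0.65 to 0.33).

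The 4 lower genes included 2 kinase partners. *Ikbkg* (NEMO, the regulatory subunit of the IkB kinase) had 726 counts in Ctrl basal and 419 in CL basal, a ratio of -0.79 (-0.97 to -0.62). It shares 418 of 8110 exonic bases with the opposite-strand gene *G6pdx*, which had 1375 and 900 counts. *Tab1*, an activator of the kinase TAK1, had 134 and 88 counts (-0.60, -1.01 to -0.21). *Nradd*, a p75-related protein, had 89 and 56 counts (-0.65, -1.18 to -0.17), and its interval held 0 with counts halved (-1.41 to 0.04).

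Of the 5 most abundant genes of the list, *Ripk1* differed most. *Sqstm1* (p62, a scaffold for TRAF6) had 58984 counts in Ctrl basal and 58720 in CL basal (-0.01), and *Timp3*, an inhibitor of the enzyme that sheds TNF, had 18402 and 18245 (-0.02). *Tnip1*, which restrains NF-kB, had 10022 and 10786 (0.10), and *Map2k3*, which activates p38, had 5974 and 6491 (0.12). *Ripk1*, the kinase recruited to *Tnfrsf1a*, was higher, with 6223 and 8228 counts and a ratio of 0.40 (0.35 to 0.45). It shares 34.3% of its exonic bases with *Gm17084*, which had 491 and 586 counts. On the opposite strand, *Timp3* shares 21.3% with *Syn3* (6850 and 6514 counts) and *Sqstm1* 17.3% with *3010026O09Rik* (17 and 25 counts).

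**Figure D5:**
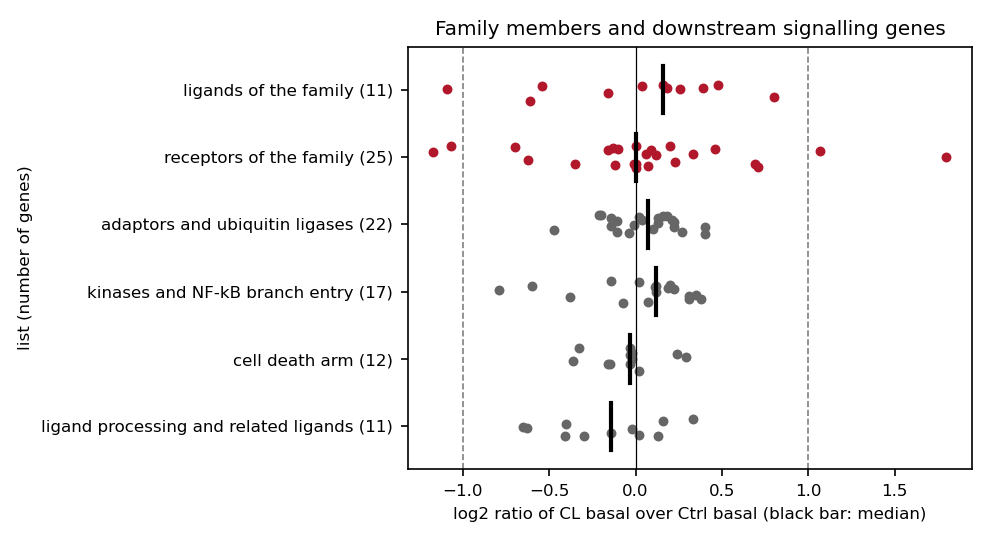
Log2 ratio of CL basal over Ctrl basal for ligands and receptors of the family (red) and for 4 lists of signalling genes (grey), with 1 point per gene, the number of genes in brackets and the median as a black bar. Dashed lines mark 2-fold. The 62 signalling genes lie between -0.79 and 0.40, inside the range of the family, which runs from -1.17 to 1.80.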

How the data were processed

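The data were 2 libraries, Ctrl basal and CL basal. Per gene, the authors deposited whole-number counts of reads over exons, without normalization, in the layout of featureCounts. The labels name GRCm38. The aligner, annotation and strand setting, and whether PCR copies were removed, were not given in the sources used here. Deposited ratio columns, the authors' own comparison, were not used.

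Library sizes were adjusted with TMM factors (edgeR 4.0.16, R 4.3.3). Ratios used a prior count of 2 and a gene needed 20 counts in sum to be compared. Exact (Clopper-Pearson) 95% intervals came from the share of a gene's counts in CL basal (scipy 1.17.1), and the calculation was tested on simulated data. With 1 library per group, edgeR's quasi-likelihood test, DESeq2 and limma have no residual degrees of freedom, so called means past 2-fold and no test was made. RPKM used the deposited exon lengths and the scaled library sizes. Shared 50-base words were counted in GENCODE M21 transcripts.

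Members and lists were chosen with earlier results of these data known. Every member is named, and values are given for those with at least 20 counts. Of the 62 signalling genes, those past 1.5-fold with at least 100 counts and the 5 with the highest RPKM are named, except 1 that is not reported here, and other genes were picked after their values were seen. Alternatives were scaling by total counts, DESeq2 1.42.0 size factors or the upper quartile, prior counts of 0.5 and 5, a minimum of 1 or 100 counts, removal of a smooth trend on mean expression, 1.5-fold, and halved counts.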

Additional observations from a re-analysis of the deposited data

How the results depend on the processing

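Of 277 ratios under alternatives, 276 stayed within the 95% interval, and the other was *Tnfrsf12a*, at 0.11 after removal of a trend on mean expression. Members with a ratio near 0 took either sign: *Ltbr* ran from -0.05 to 0.02, *Tnfrsf18* from -0.04 to 0.07, *Tnfrsf4* from -0.04 to 0.10 and *Tnfrsf26* from -0.03 to 0.09. Counts of members past 2-fold (3 lower and 2 higher) depended more on the settings. The 3 lower members became 5 without a filter on low counts, 1 with the trend removed (*Tnfrsf23*, with *Tnfrsf22* at -0.96 and *Cd70* at -0.99) and 6 at 1.5-fold, and were 2 with a prior count of 5, with at least 100 counts and with the halved-count interval. The 2 higher members became 4 without a filter, 1 with a prior count of 5, 0 with at least 100 counts, 0 where the halved-count interval had to leave out 0, and 5 at 1.5-fold. Membership at 1.5-fold also moved. *Tnf* fell short of it with upper-quartile scaling (-0.57) and with the trend removed (-0.54). *Tnfrsf9* fell short with a prior count of 5 (-0.57) and with the trend removed (-0.52). Among signalling genes, the 0 lower became 4 at 1.5-fold. The median of ligands, 0.16, was -0.002 without a filter, where the 6 ligands under 20 counts enter. The median of members ran from 0.008 to 0.10 with a filter and was -0.002 without one, that of receptors ran from -0.04 to 0.09, that of signalling genes from -0.02 to 0.06, and that of all genes from -0.05 to 0.03. No paired analysis was possible because Ctrl basal and CL basal were single libraries. Depth limits the 11 members with 20 to 99 counts and the 9 below.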

Other observations

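Genes around the decoy receptors on chromosome 7, picked after their values were seen, were read within 300 kb on either side. *Mrgpre*, a receptor of sensory neurons, had 30 counts in Ctrl basal and 8 in CL basal, a ratio of -1.68 (-3.25 to -0.75). *Osbpl5*, a lipid transfer protein, had 1313 and 1044, a ratio of -0.33 (-0.45 to -0.22). *Dhcr7*, which makes cholesterol, had 40 and 19 counts (-1.0, -1.95 to -0.26, and -2.36 to 0.10 with counts halved), and its neighbour *Nadsyn1*, which makes NAD, had 27 and 14 (-0.86, -2.0 to 0.03). *Cars*, a transfer RNA synthetase, had 6447 and 5638 counts (-0.20, -0.25 to -0.14), and *Nap1l4*, a histone chaperone, had 7197 and 6929 (-0.06, -0.11 to -0.01, and -0.13 to 0.01 with counts halved). The imprinted growth regulators *Cdkn1c* and *Phlda2* had intervals that held 0. *Cdkn1c* had 499 and 547 counts (0.13, -0.05 to 0.31) and *Phlda2* had 90 and 118 (0.38, -0.02 to 0.80). *Slc22a18*, which lies between them, had 10 counts in Ctrl basal and 0 in CL basal. Its interval lay below 0 but held 0 once counts were halved. The antisense gene *E230032D23Rik*, which overlaps *Tnfrsf23* and *Tnfrsf26*, had a ratio of -1.54 (-2.44 to -0.89).

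*Tnfsfm13*, the read-through of *Tnfsf12* and *Tnfsf13*, had a ratio of 0.06 (-0.12 to 0.25), and *Tnfsf13os*, on the opposite strand of *Tnfsf13*, had 110 counts in Ctrl basal and 90 in CL basal (-0.29, -0.71 to 0.12).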
